A study of Homo sapiens with 10 samples.

Results

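AP-1 (activator protein 1) is a transcription factor assembled from pairs of basic leucine zipper proteins of the JUN, FOS, ATF and BATF groups. The family was taken here as the 10 genes *JUN*, *JUNB*, *JUND*, *FOS*, *FOSB*, *FOSL1*, *FOSL2*, *ATF2*, *ATF3* and *BATF3*, found by symbol, and all 10 were present in both deposited tables. They were 10 of 13029 genes in the *ZMAT3* experiment, and 10 of 17642 genes in the siRNA experiment, where all 10 were among the 14274 genes tested. All libraries were RNA-seq libraries of HCT116, an established human colorectal cancer cell line. The *ZMAT3* experiment compared 3 *ZMAT3*-WT with 3 *ZMAT3*-KO libraries, each group being replicate cultures of cells that had gone through Cas9 editing, puromycin selection and single-cell cloning. The guides lay on either side of the p53 response element in an intron of *ZMAT3*, an RNA-binding protein gene that p53 activates, and the knockout work used a single clone. The loss of *ZMAT3* and other differences between the clones therefore cannot be told apart. The sample labels carry the abbreviations EV and unt, which none of the sources used here explains. The siRNA experiment compared 2 libraries of cells given a non-targeting siRNA (siCTRL) with 2 libraries of cells given a pool of siRNAs labelled sip53, with 72 hours of transfection per the labels. In neither experiment did the sources used here name a drug or a stimulus. The comparisons ask how the AP-1 genes stood in cells with less ZMAT3 or given sip53 siRNAs, in a study in which JUN was examined as a protein partner of ZMAT3.

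JUN proteins can pair with each other or with FOS proteins, whereas FOS proteins do not form stable pairs among themselves and need a JUN partner to bind DNA. JUN:FOS pairs favor the site TGACTCA, and pairs that include an ATF protein favor the cyclic AMP response element TGACGTCA or close relatives of it. Mitogens and stress act through MAP kinases, which phosphorylate JUN, ATF2 and the factors that switch on the *FOS* promoter. *JUN*, *FOS*, *FOSB*, *JUNB* and *ATF3* are known as genes that respond quickly, while *FOSL1* rises later and stays high in many carcinoma lines.

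Promoter sequences were read from RefSeq (GRCh38.p14), from 250 bases before to 50 bases after each annotated start. Entries were matched for 7 of the 10 members, *ATF3* with more than 1 start, and *FOSL1*, *ATF2* and *BATF3* had no entry. The 30-base windows below are shown because *JUN* and *ATF3* hold the same variant of the response element and moved in opposite directions in *ZMAT3*-KO cells, and because *FOS* and *FOSB* hold the shorter core TGACG at a like distance from the start and fell by a like amount. *FOSL2* also holds TGACG, 66 bases upstream, and changed little (log2 difference -0.16). *JUND* holds this core on the other strand, 86 bases upstream, and rose (log2 difference 0.56). The part of these sites in the changes was not tested. Capitals mark the motif, and each sequence runs 5′ to 3′ on the strand of its gene.
*JUN*, chr1:58784096-58784125, minus strand, 67 bases upstream: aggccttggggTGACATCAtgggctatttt
*ATF3*, chr1:212565273-212565302, plus strand, 123 bases upstream: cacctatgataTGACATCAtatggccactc
*FOS*, chr14:75278752-75278781, plus strand, 64 bases upstream: tggttgagcccgTGACGtttacactcattc
*FOSB*, chr19:45467924-45467953, plus strand, 60 bases upstream: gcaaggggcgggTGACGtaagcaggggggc

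Each motif was searched on both strands of all 35116 promoters of the table. TGACATCA was present in 2.61% of them, and among the members in those of *JUN* and *ATF3*. The full response element TGACGTCA was present in 1.85%, and in the *JUND* promoter. TGACTCA was present in 4.95%, and in the *FOSL2* promoter. TGACG, which lies within TGACGTCA but not within TGACATCA or TGACTCA, was present in 24.6% of all promoters and in those of *JUN*, *JUNB*, *JUND*, *FOS*, *FOSB* and *FOSL2*. The CArG box, to which serum response factor binds, was found in 1.29% of all promoters and in none of those of the 7 members with an entry. Sites farther than 250 bases before the start were not searched, so a box there would have been missed.

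The deposited tables hold no read counts, so the depth of the libraries is unknown and no counting interval can be given. The labels were checked on *ZMAT3* and a p53 target. *ZMAT3* was 5.00 to 5.26 log2 CPM (reads of a gene relative to all reads of its library) in *ZMAT3*-WT and 2.20 to 2.34 in *ZMAT3*-KO libraries. *CDKN1A*, a p53 target, fell from 525 and 481 FPKM (the same with length divided out) in siCTRL to 34.2 and 37.7 FPKM in sip53 libraries, and *ZMAT3* itself was 12.0 and 13.6 against 3.16 and 1.97 FPKM. *CDKN1A* also differed between the clones, with means of 7.64 log2 CPM in *ZMAT3*-WT and 7.11 in *ZMAT3*-KO libraries (log2 difference -0.53, limma adjusted p = 2.02e-08). Of 12 epithelial markers 9 were listed in the *ZMAT3* table and 10 in the siRNA table, with *KRT8*, a keratin of simple epithelia, highest in both. Their summed level was 5936 to 6281 CPM in *ZMAT3*-WT but 3311 to 3401 CPM in *ZMAT3*-KO libraries, and 3922 to 4228 against 3799 to 4384 FPKM in the siRNA experiment. Of 12 markers of fibroblasts, leukocytes and endothelium, *COL1A1* and *CD68* were the only ones listed in the *ZMAT3* table, with sums of 11.3 to 11.4 CPM in *ZMAT3*-WT and 14.1 to 14.4 CPM in *ZMAT3*-KO libraries. Of the 12, the siRNA experiment listed 5, with sums of 6.42 to 13.7 FPKM in siCTRL and 17.98 to 34.2 FPKM in sip53 libraries. The part of these shifts in the results below was not tested.

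In *ZMAT3*-KO cells the AP-1 family was rearranged. *FOS*, *FOSB*, *ATF3* and *JUNB* fell, *JUN*, *JUND* and *FOSL1* rose, and *FOSL2* and *ATF2* changed little. At a limma adjusted p under 0.05, 9 of the 10 members were called, 4 higher and 5 lower, and their groups did not overlap. The share of all 13029 genes called was 58.8% (28.7% higher and 30.1% lower), and in 64.2% of genes the groups did not overlap, so that calls without a size are common in this table. With a 1.5-fold change also required, 5 of the 10 members were called, against 8.96% of all genes. These were *JUN*, higher, against 4.6% of genes called higher, and *FOS*, *FOSB*, *ATF3* and *JUNB*, lower, against 4.37% of genes called lower. The median log2 difference was -0.11 over the 10 members and -0.01 over all genes. In bulk libraries, fewer cells with a transcript and less of it per cell cannot be told apart.

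*JUN* encodes the founding member, a strong activator that MAP kinases of the JNK type phosphorylate. It is a gene of 1 exon on chromosome 1 (hg38, 58776845 to 58784048, minus strand, GENCODE release 44). Its level was 4.48, 4.34 and 4.38 log2 CPM in *ZMAT3*-WT and 5.03, 4.99 and 5.03 log2 CPM in *ZMAT3*-KO libraries. Every *ZMAT3*-KO library was above every *ZMAT3*-WT library. The log2 difference of 0.62, or 1.53-fold (standard error 0.045, limma adjusted p = 1.83e-07), lay just past the 1.5-fold line. Without *ZMAT3*-WT replicate 2 the log2 difference was 0.58, just short of it, with the adjusted p still at or below 4.49e-06 under each library left out.

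*JUNB* moved the other way. JUNB is a weaker activator than JUN and can hold JUN back when both are present. Its gene, of 1 exon on chromosome 19 (12791486 to 12793315, plus strand), overlaps *HOOK2* on the opposite strand. The values were 7.17, 7.02 and 6.99 log2 CPM in *ZMAT3*-WT and 6.45, 6.39 and 6.45 log2 CPM in *ZMAT3*-KO libraries, with no overlap. *JUNB* fell 1.55-fold (log2 difference -0.63, standard error 0.042, limma adjusted p = 7.34e-08), and without *ZMAT3*-WT replicate 1, the highest library, the log2 difference was -0.58, just short of the 1.5-fold line, with the adjusted p at 2.96e-08. *JUND*, the member of this group known for steady expression in most cells, lies on the same chromosome (18279694 to 18281622, minus strand). It was at 6.95, 6.77 and 6.76 log2 CPM in *ZMAT3*-WT and at 7.42, 7.35 and 7.39 log2 CPM in *ZMAT3*-KO libraries. The groups were again apart, and *JUND* rose 1.47-fold (log2 difference 0.56, standard error 0.045, limma adjusted p = 3.96e-07), which did not reach the 1.5-fold line.

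The largest changes in the family were in the FOS group. *FOS*, on chromosome 14 (75278826 to 75282230, plus strand), is the textbook immediate early gene, induced through serum response factor and its cofactors. Its level was 7.71, 7.60 and 7.63 log2 CPM in *ZMAT3*-WT libraries, and 6.32, 6.11 and 6.33 log2 CPM in *ZMAT3*-KO libraries. *FOS* fell 2.63-fold (log2 difference -1.40, standard error 0.052, limma adjusted p = 2.67e-10), a larger absolute change than in 98.3% of all genes. *FOSB*, a close relative with the same strong activating end, lies on chromosome 19 (45467995 to 45475179, plus strand) and overlaps *ERCC1* on the opposite strand. It was at 6.19, 5.99 and 5.94 log2 CPM in *ZMAT3*-WT and at 4.75, 4.56 and 4.64 log2 CPM in *ZMAT3*-KO libraries. *FOSB* fell 2.62-fold (log2 difference -1.39, standard error 0.064, limma adjusted p = 1.97e-09). In both genes the gap between the groups was many times the spread within them.

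*FOSL1* and *FOSL2* encode Fra-1 and Fra-2, FOS proteins that lack that activating end. *FOSL1*, on chromosome 11 (65892049 to 65900573, minus strand), went against *FOS* and *FOSB*. Its values were 6.97, 6.91 and 6.96 log2 CPM in *ZMAT3*-WT and 7.48, 7.44 and 7.48 log2 CPM in *ZMAT3*-KO libraries. The groups did not overlap, and *FOSL1* rose 1.43-fold (log2 difference 0.52, standard error 0.029, limma adjusted p = 1.26e-08). *FOSL2*, on chromosome 2 (28392448 to 28417317, plus strand), overlaps the antisense gene *FOSL2-AS1* and a gene without a symbol on its own strand, and reads could be shared with the latter. It was at 5.47, 5.47 and 5.45 log2 CPM in *ZMAT3*-WT and at 5.26, 5.35 and 5.30 log2 CPM in *ZMAT3*-KO libraries. This was a fall of 1.11-fold (log2 difference -0.16, standard error 0.036, limma adjusted p = 0.00246), a size that is ordinary for this table, since 47.8% of genes had a smaller one.

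**Figure D1:**
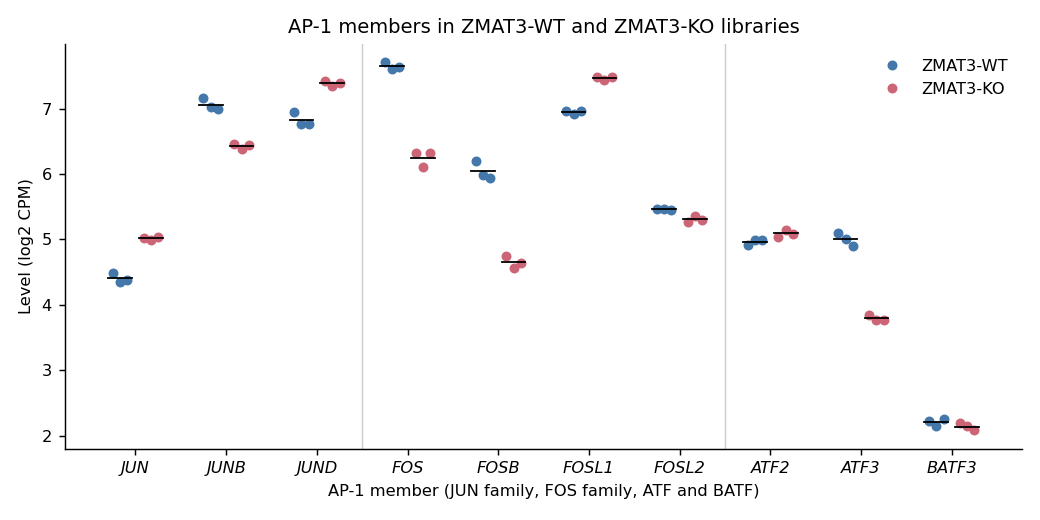
Level of the 10 AP-1 members in log2 CPM (vertical axis) by gene (horizontal axis), with a point for each of the 3 *ZMAT3*-WT (blue) and 3 *ZMAT3*-KO (red) libraries and a bar at each group's mean. *FOS*, *FOSB*, *ATF3* and *JUNB* sit lower in *ZMAT3*-KO libraries and *JUN*, *JUND* and *FOSL1* higher, while the *BATF3* points overlap between 2.08 and 2.26.

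Among the ATF and BATF genes, *ATF3* followed *FOS* and *FOSB*. ATF3 is induced by many stresses and represses transcription when paired with itself. The gene lies on chromosome 1 (212565334 to 212620777, plus strand). Its level was 5.09, 5.01 and 4.90 log2 CPM in *ZMAT3*-WT and 3.85, 3.76 and 3.77 log2 CPM in *ZMAT3*-KO libraries. *ATF3* fell 2.31-fold (log2 difference -1.21, standard error 0.054, limma adjusted p = 1.73e-09), with no overlap between the groups. *ATF2*, a partner of JUN at response element sites whose activity is set by phosphorylation rather than by its level, lies on chromosome 2 (175072250 to 175168382, minus strand), where *MIR933* lies within it. A gene without a symbol also overlaps it on its own strand, and reads could be shared with that gene. *ATF2* was at 4.92, 4.99 and 4.99 log2 CPM in *ZMAT3*-WT and at 5.04, 5.15 and 5.09 log2 CPM in *ZMAT3*-KO libraries. This rise of 1.09-fold (log2 difference 0.12, standard error 0.042, limma adjusted p = 0.0220) was lost when *ZMAT3*-WT replicate 1, *ZMAT3*-KO replicate 2 or *ZMAT3*-KO replicate 3 was left out (limma adjusted p = 0.0610, 0.0850 and 0.0516). *BATF3*, a JUN partner known from dendritic cells, lies on chromosome 1 as well (212686417 to 212699840, minus strand) and was the lowest member, at 2.22, 2.15 and 2.26 log2 CPM in *ZMAT3*-WT and 2.19, 2.15 and 2.08 log2 CPM in *ZMAT3*-KO libraries. Its groups overlapped, and the log2 difference of -0.07 had a 95% interval from -0.25 to 0.10 (limma adjusted p = 0.463).

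These changes altered which members made up each family. CPM values count reads and are not divided by length, so a member's share of the summed CPM of its family was compared between groups and not between genes. *JUNB* held 49.6%, 50.2% and 49.6% of the JUN family's CPM in *ZMAT3*-WT libraries, and 30.05%, 30.04% and 30.39% in *ZMAT3*-KO libraries. The *JUND* share was 42.3% ± 0.31 in *ZMAT3*-WT and 58.5% ± 0.27 in *ZMAT3*-KO cells (SD, n = 3), and the *JUN* share 7.89% ± 0.20 and 11.3% ± 0.13 (SD, n = 3). Thus *JUNB* gave up 19.7 percentage points, of which *JUND* took 16.2 and *JUN* 3.44. The summed level of the 3 genes was 289, 259 and 257 CPM in *ZMAT3*-WT and 291, 279 and 288 CPM in *ZMAT3*-KO libraries, and these ranges overlapped (1.06-fold, exact permutation test, two-sided p = 0.3). On the log2 scale the ratio of *JUND* to *JUNB* in CPM went from -0.24 ± 0.02 to 0.96 ± 0.02 (SD, n = 3).

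The FOS family shifted from *FOS* to *FOSL1*. *FOSL1* held 27.8%, 28.5% and 29.0% of the family's CPM in *ZMAT3*-WT and 55.1%, 56.6% and 55.2% in *ZMAT3*-KO libraries. The *FOS* share was 46.2% ± 0.19 in *ZMAT3*-WT and 24.0% ± 1.34 in *ZMAT3*-KO cells, and that of *FOSB* 15.2% ± 0.94 and 7.91% ± 0.36 (SD, n = 3). *FOSL2* went from 10.2% ± 0.33 to 12.5% ± 0.75 (SD, n = 3) although its own level fell, since the sum fell further. The family's sum was 452, 423 and 428 CPM in *ZMAT3*-WT and 323, 307 and 323 CPM in *ZMAT3*-KO libraries, a ratio of 0.732 with no overlap. The log2 ratio of *FOSL1* to *FOS* was -0.70 ± 0.03 in *ZMAT3*-WT and 1.22 ± 0.10 in *ZMAT3*-KO cells (SD, n = 3). For each of the 7 shares, for the FOS family's sum and for both ratios the groups did not overlap and the exact permutation test (two-sided) gave p = 0.1, the smallest that 3 libraries against 3 can give, so none could pass 0.05, and the p-values of the shares adjusted over the 7 were 0.1 as well.

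**Figure D2:**
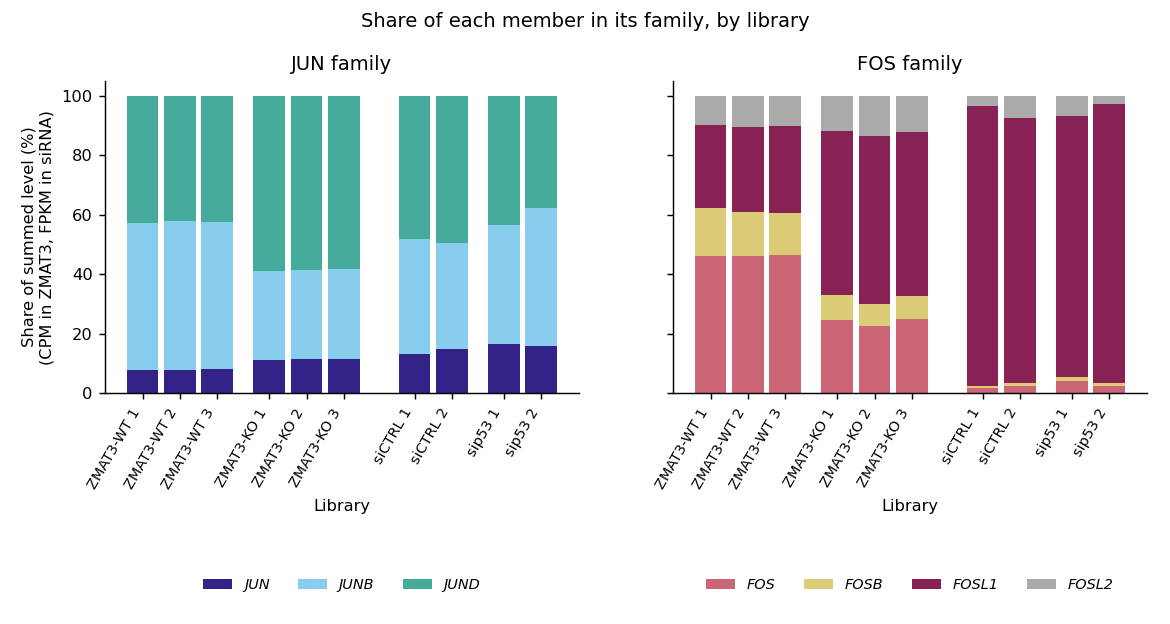
Share of each member in the summed level of the JUN family (left) and the FOS family (right), in percent (vertical axis), for each of the 10 libraries (horizontal axis), from CPM in the *ZMAT3* and FPKM in the siRNA experiment. *JUNB* takes 49.6% to 50.2% of the JUN family in *ZMAT3*-WT and 30.04% to 30.39% in *ZMAT3*-KO libraries, and *FOSL1* 27.8% to 29.0% and 55.1% to 56.6% of the FOS family.

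To set genes beside each other, CPM was divided by the length of the canonical GENCODE transcript in kilobases. Per length, *FOS* was the highest member in *ZMAT3*-WT cells at 95.3 ± 3.51 CPM per kilobase (SD, n = 3), followed by *JUNB* at 73.1 ± 4.75 and *FOSL1* at 72.5 ± 1.53, which did not differ beyond their spread, and by *JUND* at 58.9 ± 4.38. *FOSB* at 17.5 ± 1.66 and *ATF3* at 16.5 ± 1.13 CPM per kilobase came next and overlapped. *ATF2* was at 7.51 ± 0.22, *FOSL2* at 6.57 ± 0.04 and *JUN* at 6.502 ± 0.33 CPM per kilobase, the last pair overlapping, and *BATF3* was lowest at 5.54 ± 0.21. In *ZMAT3*-KO cells the order was *FOSL1* at 103.8 ± 1.63, *JUND* at 86.7 ± 2.08, *JUNB* at 47.1 ± 1.17 and *FOS* at 36.3 ± 3.08 CPM per kilobase, with no overlap between neighbors. *JUN* had moved up to the fifth place at 9.95 ± 0.15, ahead of *ATF2* at 8.19 ± 0.32, *ATF3* at 7.15 ± 0.25 and *FOSB* at 6.66 ± 0.45 CPM per kilobase, of which *ATF3* and *FOSB* overlapped. *FOSL2* followed at 5.90 ± 0.18 and *BATF3* at 5.27 ± 0.20. Taken per length, *JUN* was 4.70% of its family in *ZMAT3*-WT and 6.92% in *ZMAT3*-KO cells, and *FOSL1* was 37.8% and 68.0% of the FOS family.

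With sip53, *JUN* and *FOS* were higher at an unadjusted p under 0.05, and no member passed an adjusted p. The values are FPKM, which are per length, and they were tested with limma on log2(FPKM + 0.1), a scale that understates the change of low genes slightly. The 2 of 10 members called, both higher, stood against 15.1% of all genes in either direction and 5.86% of genes called higher. An adjusted p under 0.05 was passed by 0.273% of genes. The sip53 and siCTRL values did not overlap in 5 of the 10 members, 4 higher and 1 lower, against 46.4% of all genes. The median log2 difference was 0.25 over the members and -0.04 over all genes. Of the 2161 genes called, 836 were higher and 1325 lower (9.28% of genes), but after centring every library on its median gene these were 1120 and 1048. The calls among the members were 2 higher and 0 lower in either case.

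*JUN* was at 9.81 and 9.11 FPKM in the siCTRL libraries and at 12.8 and 16.3 FPKM in the sip53 libraries. Both sip53 libraries were above both siCTRL libraries. *JUN* rose 1.52-fold (log2 difference 0.61, standard error 0.201, limma unadjusted p = 0.0273, adjusted p = 0.264), and the call was lost without siCTRL replicate 1, siCTRL replicate 2 or sip53 replicate 2 (limma unadjusted p = 0.0897, 0.138 and 0.146). *FOS* was at 3.09 and 2.74 FPKM in siCTRL and at 5.82 and 5.67 FPKM in sip53 libraries, a gap wider than the spread within either pair. *FOS* rose 1.94-fold (log2 difference 0.96, standard error 0.201, limma unadjusted p = 0.00422, adjusted p = 0.150), and the unadjusted p was 0.0343 or less with any library left out.

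*JUNB* was at 29.02 and 22.15 FPKM in siCTRL and at 31.25 and 47.9 FPKM in sip53 libraries. The groups were apart but the sip53 libraries differed from each other by more than the gap, and the log2 difference of 0.61 had a 95% interval from -0.09 to 1.31 (limma unadjusted p = 0.0765). It passed 0.05 only when sip53 replicate 1 was left out (limma unadjusted p = 0.0192). *FOSB*, the lowest member here, was at 1.65 and 1.12 FPKM in siCTRL and 1.93 and 2.57 FPKM in sip53 libraries, without overlap (log2 difference 0.67, 95% interval -0.14 to 1.48, limma unadjusted p = 0.0879). *BATF3* was the member whose sip53 values were lower without overlap, at 3.51 and 3.25 FPKM against 5.25 and 4.12 FPKM (log2 difference -0.45, 95% interval -1.02 to 0.11, limma unadjusted p = 0.0971).

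In the other 5 members the groups overlapped. *FOSL1* was far above the rest, at 182.8 and 98.03 FPKM in siCTRL and 121.8 and 221.1 FPKM in sip53 libraries, so each treatment had a low and a high replicate (log2 difference 0.29, 95% interval -0.76 to 1.35, limma unadjusted p = 0.512). *JUND* was at 36.1 and 30.7 against 33.8 and 38.9 FPKM (95% interval of the log2 difference -0.36 to 0.61). *FOSL2* was at 6.43 and 8.17 against 9.19 and 6.52 FPKM (95% interval -0.54 to 0.73). *ATF2* was at 20.1 and 13.5 against 13.8 and 15.8 FPKM (95% interval -0.79 to 0.47), and *ATF3* at 16.1 and 19.0 against 22.4 and 18.4 FPKM (95% interval -0.29 to 0.72). Each of these intervals reaches past a 1.5-fold change in at least 1 direction, so the libraries do not show that these genes were unaffected.

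**Figure D3:**
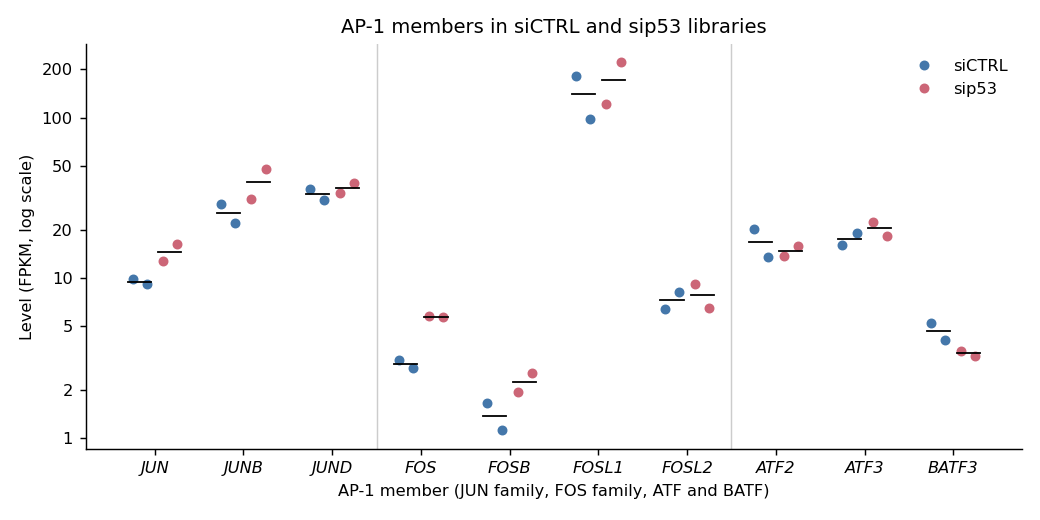
Level of the 10 AP-1 members in FPKM on a log scale (vertical axis) by gene (horizontal axis), with a point for each of the 2 siCTRL (blue) and 2 sip53 (red) libraries and a bar at each group's mean. The sip53 points lie above the siCTRL points for *JUN*, *JUNB*, *FOS* and *FOSB* and below them for *BATF3*, and *FOSL1* ranges from 98.03 to 221.1 FPKM.

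By level, *FOSL1* led with 140.4 ± 59.9 FPKM with siCTRL (SD, n = 2), followed by *JUND* at 33.4 ± 3.82, *JUNB* at 25.6 ± 4.86, *ATF3* at 17.5 ± 2.04 and *ATF2* at 16.8 ± 4.70, the last pair overlapping. *JUN* at 9.46 ± 0.49, *FOSL2* at 7.30 ± 1.23, *BATF3* at 4.69 ± 0.80, *FOS* at 2.92 ± 0.25 and *FOSB* at 1.39 ± 0.37 FPKM closed the order. With sip53, *JUNB* at 39.6 ± 11.8 and *JUND* at 36.4 ± 3.61 overlapped below *FOSL1*, as did *ATF2* at 14.8 ± 1.41 and *JUN* at 14.5 ± 2.43, and *FOS* at 5.75 ± 0.11 stood above *BATF3* at 3.38 ± 0.18 FPKM. *FOS* was thus first by level in *ZMAT3*-WT cells and ninth with siCTRL. The tables were normalized separately and the cells were handled differently, so this contrast of orders was not tested. *FOSL1* made up 94.2% and 89.1% of the FOS family's FPKM with siCTRL and 87.8% and 93.7% with sip53, and *FOS* 1.59% and 2.49% against 4.195% and 2.404%. *JUN* was 13.1% and 14.7% of its family with siCTRL and 16.5% and 15.8% with sip53, *JUNB* 38.8% and 35.8% against 40.1% and 46.5%, and *JUND* 48.2% and 49.5% against 43.4% and 37.8%. The 3 JUN family shares and that of *FOSB* did not overlap between the groups and gave p = 0.3333 in the exact permutation test (two-sided), the smallest that 2 libraries against 2 can give, while those of *FOS*, *FOSL1* and *FOSL2* gave p = 0.667. Adjusted over the 7 shares these p-values of the exact test were 0.583 and 0.667.

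Set side by side, *JUN* was the member called higher in both experiments, with log2 differences of 0.62 in *ZMAT3*-KO and 0.61 in sip53 cells, though the latter rests on the unadjusted p. *FOS* was called in both and in opposite directions, at -1.40 in *ZMAT3*-KO and 0.96 in sip53 cells. Its sip53 call also rests on the unadjusted p (limma adjusted p = 0.150). At a limma unadjusted p under 0.05, 15.1% of all genes were called with sip53. The log2 differences of *FOSB* were -1.39 and 0.67, those of *JUNB* -0.63 and 0.61, and those of *ATF3* -1.21 and 0.22, of which the sip53 values did not pass the test. *JUND* and *FOSL1* had log2 differences of 0.56 and 0.52 in *ZMAT3*-KO cells and 0.13 and 0.29 in sip53 cells. The experiments share no libraries, and whether their differences differ was not tested. *ZMAT3* was lower in both, by a log2 difference of -2.89 in *ZMAT3*-KO cells and of -2.31 in sip53 cells (limma unadjusted p = 0.000282, adjusted p = 0.0670).

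**Figure D4:**
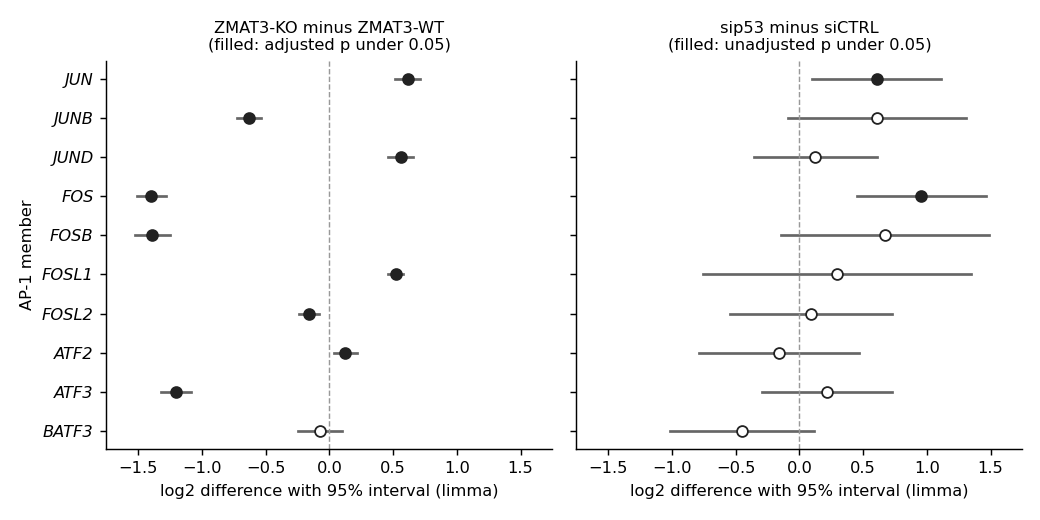
Log2 difference of each AP-1 member (vertical axis) with its 95% interval from limma, for *ZMAT3*-KO minus *ZMAT3*-WT (left) and sip53 minus siCTRL (right), filled where called. *JUN* lies to the right of 0 in both panels (0.62 and 0.61), *FOS* to the left in the first (-1.40) and to the right in the second (0.96), and the intervals are wider with 2 libraries a group.

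Further lists place the members in their pathway. The partner list held 20 other basic leucine zipper genes, such as the MAF, CEBP and CREB genes, of which 15 were tested in the *ZMAT3* experiment. There 6 rose and 2 fell in *ZMAT3*-KO cells (limma adjusted p under 0.05), with a median log2 difference of 0.11, and the 8 called of 15 did not exceed the 58.8% called over all genes. *CREB5*, a relative of *ATF2*, was the only partner past 1.5-fold, with group means of -0.44 and 1.00 log2 CPM (log2 difference 1.44, standard error 0.174, limma adjusted p = 1.6e-05), and it was 0.79 with 1 CPM added before the logarithm. With sip53, 3 of 17 partners tested were higher and 1 lower at an unadjusted p under 0.05, against 5.86% and 9.28% of all genes. *DDIT3*, the stress-induced CHOP gene that ATF4 activates, rose from 6.15 to 29.4 FPKM (log2 difference 2.24, limma unadjusted p = 4.09e-05), *CREB5* from 0.68 to 2.00 FPKM (log2 difference 1.38, limma unadjusted p = 0.0181, lost without siCTRL replicate 2 or sip53 replicate 2), and *BATF2* fell from 5.48 to 1.31 FPKM (log2 difference -2.004, limma unadjusted p = 0.000400).

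Upstream of AP-1, the list of MAP kinases, their phosphatases, the factors at the *FOS* promoter and the ligases that degrade JUN held 31 genes, of which 30 were tested in each experiment. In *ZMAT3*-KO cells 13 rose and 9 fell, against 28.7% and 30.1% of all genes, with a median log2 difference of 0.10. Past 1.5-fold 0 rose and 2 fell, against 4.6% and 4.37% of all genes. These were *MAP3K5*, the stress kinase ASK1 that feeds the JNK and p38 pathways (log2 difference -0.87, limma adjusted p = 2.63e-08), and *DUSP1*, a phosphatase of those kinases that is itself an early response gene (log2 difference -0.69, limma adjusted p = 9.94e-08). With sip53, 2 were higher and 2 lower at an unadjusted p under 0.05, shares near those of all genes (5.86% and 9.28%). *MAPK8IP3*, a scaffold of JNK, had a log2 difference of 1.35 (limma unadjusted p = 0.00744) and *MAP2K4*, a kinase of JNK, one of 0.51 (limma unadjusted p = 0.0400). *FBXW7*, a ligase subunit that targets JUN, had a log2 difference of -0.52 (limma unadjusted p = 0.0338) and *ELK4*, a partner of serum response factor, one of -0.45 (limma unadjusted p = 0.0474). The calls of *MAP2K4*, *FBXW7* and *ELK4* were each lost with any library left out.

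Downstream, genes known from the literature as AP-1 targets were called in both directions. Of 32 on the list, 19 were tested in the *ZMAT3* experiment, of which 5 rose and 7 fell in *ZMAT3*-KO cells, with a median log2 difference of -0.04, against 28.7% of all genes called higher and 30.1% lower. Past 1.5-fold 5 were higher and 2 lower, against 4.6% and 4.37% of all genes. *MMP14*, a membrane matrix metalloprotease, had group means of -0.93 and 2.94 log2 CPM (log2 difference 3.86, standard error 0.188, limma adjusted p = 3.64e-09, and 2.49 with 1 CPM added), and *HMGA2*, an architectural chromatin protein, rose by 1.10 (limma adjusted p = 1.68e-11). *LIF*, a cytokine of the interleukin 6 group, had a log2 difference of -0.97 (limma adjusted p = 1.26e-07) and *EZR*, which links membrane to actin, -0.92 (limma adjusted p = 1.19e-11). With sip53, 2 of 23 were higher and 2 lower at an unadjusted p under 0.05, against 5.86% and 9.28% of all genes. *EREG* and *PLAUR*, an EGF receptor ligand and the urokinase receptor, had log2 differences of 0.70 and 0.46 (limma unadjusted p = 0.0236 and 0.0386). *CCND1*, the gene of cyclin D1, had a log2 difference of -0.95 (limma unadjusted p = 0.00504). The call of *PLAUR* was lost with any library left out and that of *EREG* without siCTRL replicate 1, siCTRL replicate 2 or sip53 replicate 1.

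Most of the other immediate early genes listed were lower in *ZMAT3*-KO cells, as *FOS* and *FOSB* were, while *JUN* was higher. Of the 19 on the list, all tested, 14 were lower and 4 higher (limma adjusted p under 0.05, against 30.1% and 28.7% of all genes). Past 1.5-fold 9 were lower and 2 higher, against 4.37% and 4.6% of all genes. Their median log2 difference was -0.58, against -0.01 over all genes. *CCN2*, a matrix protein gene also driven by YAP, went from 4.33 to 0.56 log2 CPM (log2 difference -3.77, limma adjusted p = 4.65e-10, and -3.08 with 1 CPM added) and *NR4A1*, an orphan nuclear receptor, from 6.55 to 4.58 log2 CPM (log2 difference -1.97, limma adjusted p = 2.41e-09). *ZFP36L1*, which marks AU-rich messages for decay, and *KLF2*, a zinc finger factor, rose by 0.93 and 0.68 on the log2 scale (limma adjusted p = 2.64e-11 and 5.55e-07). Of 9 epithelial markers 4 were lower and 0 higher, against 30.1% and 28.7% of all genes, and these 4 fell past 1.5-fold, against 4.37%. Among them were *KRT19* (log2 difference -1.753, limma adjusted p = 1.82e-13) and *KRT8* (log2 difference -0.94, limma adjusted p = 1.05e-10). The rest were not called, with log2 differences from -0.16 to 0.05, and *EPCAM* was at 0.01. Both listed markers of other cells were higher, *CD68* by 0.98 on the log2 scale (limma adjusted p = 4.14e-05). The part of these markers in the result was not tested. With sip53, 4 of the 19 early genes were higher and 2 lower at an unadjusted p under 0.05, against 5.86% and 9.28% of all genes, with a median log2 difference of 0.38 against -0.04 over all genes. *DUSP5*, a phosphatase of ERK, rose by 1.499 and *KLF2* by 1.33 on the log2 scale (limma unadjusted p = 0.00123 and 0.00105). *BTG2* and *IER5*, both also known as p53 targets, had log2 differences of -2.07 and -1.06 (limma unadjusted p = 9.34e-05 and 0.00164). The sip53 libraries also had 1 of 9 epithelial markers higher and 0 lower, against 5.86% and 9.28% of all genes. This was *EPCAM* (log2 difference 0.60, limma unadjusted p = 0.0234), and *CD68* was higher by 2.09 on the log2 scale (limma unadjusted p = 0.0294). The *EPCAM* call was lost with any library left out, and that of *CD68* without siCTRL replicate 2 or sip53 replicate 2.

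**Figure D5:**
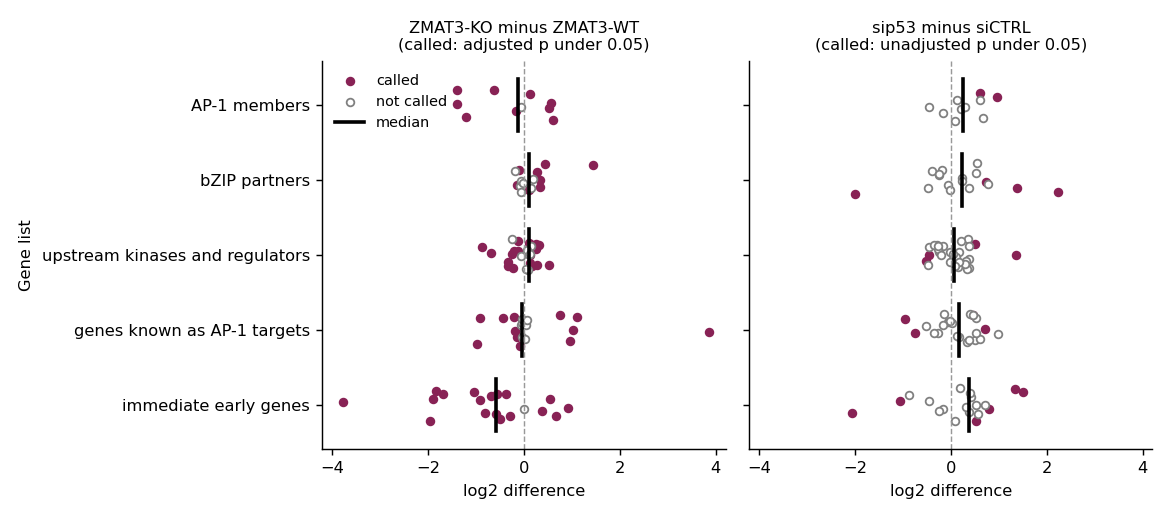
Log2 difference (horizontal axis) of each tested gene of the AP-1 members and of 4 pathway lists (vertical axis), for *ZMAT3*-KO minus *ZMAT3*-WT (left) and sip53 minus siCTRL (right), with called genes filled and a bar at each list's median. The immediate early genes have medians of -0.58 and 0.38, and those of the partners and upstream genes lie between 0.06 and 0.24.

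The genes whose log2 CPM was most like that of *JUN* over the 6 libraries of the *ZMAT3* experiment were *TMEM132A*, *TUBB4A* and *TCIRG1*, with Pearson's r of 0.9995, 0.9995 and 0.9993. For *FOS*, the member with the largest change, they were *SRF*, *NTN4* and *TMEM59L*, with r of 0.9996, 0.9995 and 0.9994. Such values are common here, since 1513 of 12766 genes had an r over 0.95 with *JUN* and 1670 with *FOS*, and the 6 points form 2 groups. The log2 differences of these genes were 0.65, 0.64 and 1.15 for those like *JUN* and -0.33, -1.03 and -0.77 for those like *FOS*.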

How the data were processed

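RNA-seq values of 10 HCT116 libraries were analysed, grouped by the genotype or the siRNA in the sample labels. In the *ZMAT3* experiment the authors made stranded libraries from poly(A)-selected RNA. Reads were trimmed (Cutadapt), aligned (STAR, hg38) and quantified per gene (RSEM), and the authors deposited log2 CPM. How log2 CPM was made from these estimates is not given in the sources used here. All 6 libraries have the same lowest (-6.62) and highest (13.51) value, as after quantile normalization, so differences of scale between libraries had been removed. The values deposited for the siRNA experiment were taken as FPKM from their range and from sums of 708634 to 829230 per library. Their processing and use of strand are not given in the sources used here, so members with a gene on the opposite strand (*JUNB*, *FOSB*, *FOSL2*, *ATF2*) are uncertain there. The submitters' processing notes name CASAVA 1.8.2, TopHat2 2.0.8, FastQC 0.11.2, hg19 and hg38 without a role. The authors' own fold changes and p-values in the deposited tables were not used, and 0 columns of other samples were present.

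Fits were made separately for each table in limma 3.58.1 under R 4.3.3 (functions lmFit and eBayes, a trend of the variance on the mean, two-sided tests, Benjamini-Hochberg adjustment over all genes tested). The siRNA values were taken as log2(FPKM + 0.1), leaving out genes whose mean was under 0.5 FPKM. Calls took an adjusted p under 0.05 in the *ZMAT3* and an unadjusted p under 0.05 in the siRNA experiment. P-values measure the spread between replicate cultures. Shares and sums were compared with exact permutation tests (scipy 1.17.1). The fits were tested on simulated data. Genes named are the members, *ZMAT3* and *CDKN1A*, the 2 called genes with the largest change in each list and direction (past 1.5-fold in the *ZMAT3* experiment), and the 3 genes most like *JUN* and like the member that changed most. Some genes that this rule names are not reported here. The members and lists were chosen with earlier results of these data known. Tables were handled with pandas 2.3.3 and numpy 2.4.6, places are from GENCODE release 44, which is later than the authors' annotation, and figures were drawn with matplotlib 3.10.9. Same-numbered replicates did not deviate together (correlation of deviations from the group means across genes -0.04, -0.02 and -0.09 in the *ZMAT3* and -0.62 in the siRNA experiment), so no replicate block was used. With 2 libraries a group the deviations are mirror images, so libraries of unlike number had the same value with its sign changed (0.62). The alternatives were other pseudocounts, filters, centring, no variance trend, the replicate block, other thresholds and leaving out each library.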

Additional observations from a re-analysis of the deposited data

How the results depend on the processing

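In the *ZMAT3* experiment 9 members were called under each setting that kept the adjusted p alone, except that 8 to 9 were with a library left out (*ATF2* was lost), and 5 (1 higher, 4 lower) with a 1.5-fold change also required. The genes called over the 6 lists were 66, 62 to 67 with a library left out, and 26 with the fold. No member's called difference changed sign under any alternative run. The difference in the *JUNB* share was -19.7 points, -20.02 points per length, an alternative chosen after seeing the data, and -19.8 to -19.5 with a library left out. The rise of the *FOSL1* share was 27.2 points, 31.9 without *FOSL2* in the family, 30.3 per length and 26.7 to 27.5 with a library left out. The longer the transcript, the less its reads weigh per length, by construction.

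In the siRNA experiment 2 members were called, 1 with a mean of at least 5 FPKM (*FOS* was then below the filter and not tested), 0 at an adjusted p under 0.05 and 1 to 3 with a library left out. The 20 list genes called became 2 at an adjusted p and 9 to 18 with a library left out, and their 13 higher and 7 lower became 19 and 5 after centring every library on its median gene. Where leaving out a library left 1 in a group, that library was assumed to vary like the other group. The replicate numbers share only a number, since same-numbered libraries did not deviate together: with the replicate block, 9 members (*ZMAT3*) and 1 member (siRNA) were called, the latter *FOS*, with *JUN* at an unadjusted limma p of 0.0981, and 71 and 11 list genes. With the numbers crossed, chosen after seeing the data, 6 members and 56 list genes were called in the siRNA experiment.

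The limits are the unknown depth, the single knockout clone, the shared distribution of the log2 CPM values, 2 libraries a group with siRNA, and the lack of a length scale in CPM. Genes low in a group, such as *CREB5*, *MMP14* and *CCN2*, depend on the pseudocount. For the other causes of these shifts between settings, the cause was not tested.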

Other observations

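Within the siRNA experiment, most members varied between replicates in a pattern also present across all genes tested. It is not particular to the members, and the share of all genes that followed it was not counted. *FOSL1* was at 182.8 FPKM in siCTRL replicate 1 and 221.1 FPKM in sip53 replicate 2, and at 98.03 and 121.8 FPKM in siCTRL replicate 2 and sip53 replicate 1. *JUNB*, *JUND* and *ATF2* were also higher in the first of these pairs than in the replicate of the same treatment, with 29.02 and 47.9, 36.1 and 38.9, and 20.1 and 15.8 FPKM. So were *JUN*, with 9.81 and 16.3 FPKM, and *FOSB*, with 1.65 and 2.57 FPKM. *FOSL2* and *ATF3* were lower there, with 6.43 and 6.52 and with 16.1 and 18.4 FPKM. *FOS* and *BATF3* were higher in siCTRL replicate 1 but lower in sip53 replicate 2. The summed FPKM of all genes was 790466 and 829230 in the first pair and 708634 and 745042 in the second. Across the 14274 genes tested, the deviations of siCTRL replicate 1 and sip53 replicate 2 from their group means had a Pearson's r of 0.62, given as a description. It is the value of the same-numbered libraries (-0.62) with its sign changed, by construction with 2 libraries a group. No batch is given in the labels.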
